A study of Homo sapiens with 12 samples.

Results

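Expression of 7 genes of the tissue factor and plasminogen activation systems was followed in HEK293, a human embryonic kidney cell line, with and without the transcription factor RPF-1. They are TFPI, TFPI2, F3, PLAU, PLAUR, PLAT and SERPINE2, 7 of the 16578 genes on the array, and every probe annotated to 1 of these symbols was taken, 10 of 22184 probes. All 10 probes passed the filter on low signals. The genes were picked with the response of RPF1 cells to RPF-1 induction already known. Their changes in any comparison that uses RPF1 arrays are therefore given as a description, without a p-value.

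Total RNA was hybridised to 12 Illumina bead arrays in 4 groups of 3. All cells were stable HEK293 transfectants cultured for 48 h. The RPF1 groups carried pTRE2puro with the cDNA of RPF-1, which tetracycline (Tet) keeps off and its removal turns on, and the Mock groups were mock transfectants. The 4 groups were Mock Tet+, Mock Tet-, RPF1 Tet+ (uninduced) and RPF1 Tet- (induced), each named by its transfectant and by the presence of Tet in the medium. The labels do not say whether a line is a single clone or whether the 3 arrays of a group are separate cultures, so the spread between arrays may be technical.

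In blood clotting, tissue factor, the product of F3, binds factor VII and starts the cascade, and TFPI stops that complex through its Kunitz domains. In plasminogen activation, the serine proteases urokinase (PLAU) and tissue plasminogen activator (PLAT) cut plasminogen to plasmin, the urokinase receptor (PLAUR) holds urokinase at the cell surface, and serpins such as SERPINE2 (protease nexin-1) trap the activators and thrombin. TFPI2 is a relative of TFPI that is deposited in the extracellular matrix and inhibits plasmin and other proteases.

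Promoter windows of 3 of these genes are printed, because TFPI and SERPINE2 had the largest differences between induced and uninduced RPF1 cells among the 7 and F3 is the target of TFPI. Each window runs from 250 bases before to 50 bases after a transcription start in RefSeq (GRCh38.p14), 5′ to 3′ on the gene's strand. Windows of 6 of the 7 genes were searched, with 2 alternative windows for SERPINE2 and for PLAU, and PLAT was left out. Capitals mark matches, on either strand, to 6 motifs: the octamer ATGCAAAT, the AP-1 site TGANTCA, the GC box GGGCGG, the TATA box TATAAA, the E-box CACGTG and the homeodomain core TAATTA. TFPI, chr2:187554386-187554685, minus strand:
TFPI: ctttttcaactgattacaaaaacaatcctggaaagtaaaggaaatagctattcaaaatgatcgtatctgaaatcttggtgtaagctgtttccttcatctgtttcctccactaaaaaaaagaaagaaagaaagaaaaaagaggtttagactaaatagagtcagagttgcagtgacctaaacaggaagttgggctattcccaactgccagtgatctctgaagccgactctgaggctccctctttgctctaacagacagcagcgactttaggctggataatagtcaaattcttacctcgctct
SERPINE2 has its windows at chr2:224031429-224031728 and chr2:224038591-224038890, both on the minus strand:
SERPINE2 window 1: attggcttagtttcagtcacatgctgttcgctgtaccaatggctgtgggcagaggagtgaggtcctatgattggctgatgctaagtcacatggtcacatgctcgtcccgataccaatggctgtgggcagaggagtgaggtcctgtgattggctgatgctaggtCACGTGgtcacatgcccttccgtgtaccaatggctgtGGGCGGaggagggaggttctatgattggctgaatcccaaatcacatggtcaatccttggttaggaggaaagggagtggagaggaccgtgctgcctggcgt
SERPINE2 window 2: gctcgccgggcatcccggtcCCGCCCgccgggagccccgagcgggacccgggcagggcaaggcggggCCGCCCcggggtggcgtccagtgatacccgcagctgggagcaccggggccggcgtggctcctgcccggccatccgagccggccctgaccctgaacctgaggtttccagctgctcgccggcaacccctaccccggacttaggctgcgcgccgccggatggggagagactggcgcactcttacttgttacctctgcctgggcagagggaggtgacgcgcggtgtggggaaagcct
F3 lies at chr1:94541710-94542009, minus strand:
F3: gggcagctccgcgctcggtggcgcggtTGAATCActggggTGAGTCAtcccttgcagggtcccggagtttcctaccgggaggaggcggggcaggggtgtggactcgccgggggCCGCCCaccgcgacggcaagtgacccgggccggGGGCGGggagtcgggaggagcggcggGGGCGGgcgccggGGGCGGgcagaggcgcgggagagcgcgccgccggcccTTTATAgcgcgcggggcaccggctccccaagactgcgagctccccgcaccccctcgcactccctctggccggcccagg

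None of the 6 motifs was in the TFPI window, and its GC content of 39.3% was below the median of 58.7% over all 35116 RefSeq windows. The F3 window had a GC content of 77.3% and held AP-1 matches at -223 and -210, GC boxes at -137, -104, -78 and -65 and a TATA box at -28, counted from the start site. In SERPINE2, window 1 held an E-box at -87 and a GC box at -50, and window 2 held GC boxes at -230 and -183. Among all windows, 7.71% held the AP-1 letters, 45.0% the GC box, 11.5% the TATA box, 7.26% the E-box, 1.77% the octamer and 4.84% the homeodomain core. These are matches of letters and were not tested for binding.

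Between 13568 and 14493 probes were detected per array, with median raw signals of 277 to 357. The arrays lay on 3 chips: 2 Mock Tet+ arrays (1 and 2) on chip 1, 2 RPF1 Tet- arrays (2 and 3) on chip 3 and the remaining 8 on chip 2. With chip as a block, RPF1 Tet- is represented by its array 1 and Mock Tet+ by its array 3, and such values assume that a lone array varies like the others. Of 8 genes used as HEK293 markers, 6 were detected on all 12 arrays, and INA and PAX2 on none. The endothelial markers CDH5, ENG and ESAM, the fibroblast markers COL1A2 and THY1, the monocyte markers CD14 and CD163, the platelet gene PF4 and the hepatocyte genes TTR and AHSG were detected on none. Other genes of the same lists were detected on all 12 arrays, namely the platelet markers ITGA2B, GP1BA and PPBP, the fibroblast markers COL1A1 and LUM, the endothelial marker EGFL7 and the hepatocyte marker SERPINA1, and the leukocyte gene PTPRC on 9.

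TFPI was readily detected in 3 groups and much lower in induced RPF1 cells. Its brightest probe, ILMN_1707124, gave log2 normalised signals of 9.99, 10.04 and 10.27 in Mock Tet+ and of 10.18, 10.24 and 10.37 in Mock Tet-. It read 10.49, 10.47 and 10.40 in RPF1 Tet+ and 7.75, 7.43 and 7.57 in RPF1 Tet-. Every induced array lay below all 9 others, by more than 2 log2 units, and the Mock groups overlapped. The mean was 10.45 ± 0.05 (SD, n = 3) in RPF1 Tet+ and 7.58 ± 0.16 in RPF1 Tet-. That is a log2 change of -2.87 (SE 0.10, 95% interval -3.10 to -2.64), or 7.31-fold lower. With chip as a block the log2 change was -2.71 (SE 0.12). On the authors' processed values, which have no background subtracted, it was -2.19, or 4.56-fold lower.

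The other probes of TFPI showed the same order of groups. ILMN_1662619 read 9.84, 9.71 and 9.95 in RPF1 Tet+ and 6.82, 6.85 and 6.93 in RPF1 Tet-, a log2 change of -2.97 (SE 0.09). ILMN_1701032 read 7.98, 7.69 and 8.04 in RPF1 Tet+, with a mean of 7.90. It was not detected on any induced array, where it measured 5.80 on average, so the difference is given as at least 3.72-fold lower against the lowest signals of detected probes on those arrays. The Mock values of ILMN_1662619 ran from 9.41 to 9.66 and those of ILMN_1701032 from 7.42 to 7.78, above the induced arrays throughout. ILMN_1707124 is annotated to a RefSeq transcript other than that of ILMN_1662619 and ILMN_1701032. All 3 probes differed in the same direction, and levels of different probes are not compared.

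**Figure D1:**
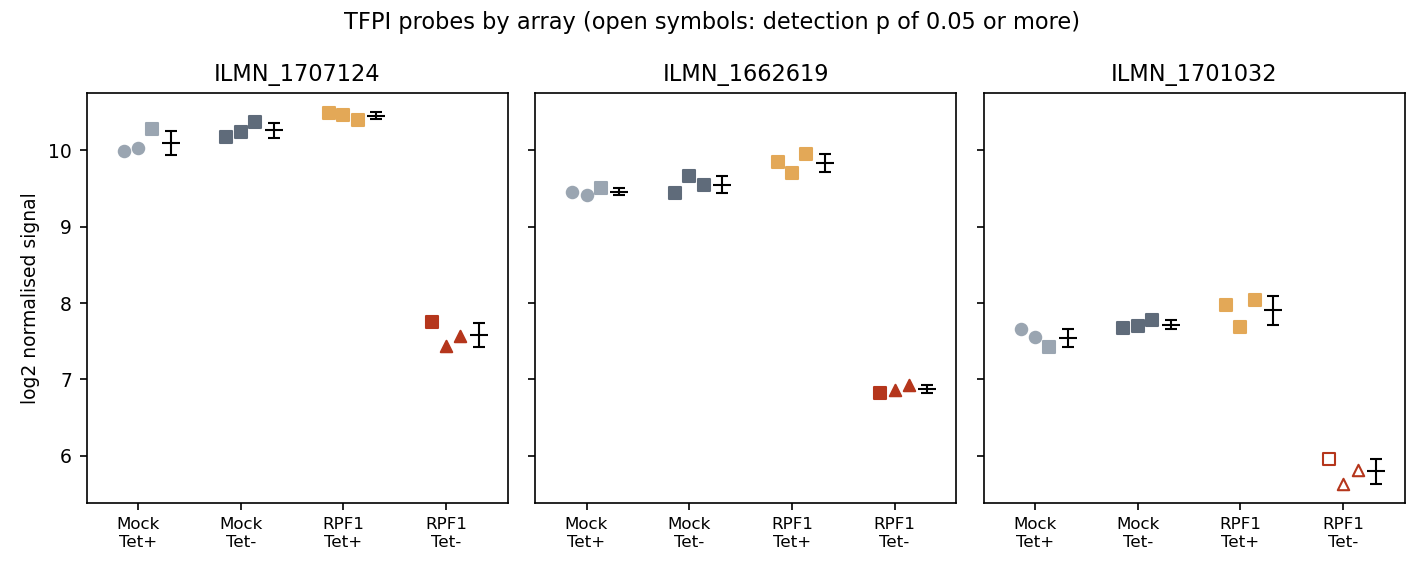
The log2 normalised signal of the 3 TFPI probes on each of the 12 arrays, with a panel per probe. Symbols show the chip (circles chip 1, squares chip 2, triangles chip 3), open symbols a detection p of 0.05 or more, and bars the mean ± SD (n = 3). The RPF1 Tet- arrays lie below all others in each panel, and those of ILMN_1701032 are open.

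Endothelial cells are a main source of TFPI in the body, so their markers are given beside it. Of 9 endothelial markers, EGFL7 was detected on all 12 arrays, at log2 signals of 8.44 to 9.34. The others were detected on 0 to 6 arrays, with none above 6.36. A sum over the 9 thus holds mostly undetected signals beside EGFL7. The summed normalised signal of the 9, on the linear scale, was 929 to 1078 in RPF1 Tet+ and 756 to 843 in RPF1 Tet-. In Mock Tet+ it was 855 to 889 and in Mock Tet- 828 to 966. Of the 3 markers with enough signal to test, 1 was lower in induced cells. Whether the shift of this sum takes part in the TFPI difference was not tested. Summed fibroblast markers lay between 1264 and 1970 in RPF1 Tet+ and between 910 and 1130 in RPF1 Tet-. They lay between 1410 and 1514 in Mock Tet+ and between 1341 and 1579 in Mock Tet-. Of the 2 that could be tested, 1 was higher and 1 was lower in induced cells. Apart from LUM (8.43 to 10.51) and COL1A1 (8.10 to 8.80), the fibroblast markers were detected on 0 to 2 arrays. The part of the fibroblast markers in any member's change was not tested either. Of the 6 HEK293 markers that could be tested, 2 were higher and 2 were lower in induced than in uninduced RPF1 cells. All cultures were HEK293 transfectants, so these sums are no count of endothelial cells or fibroblasts. RNA of whole cultures does not show how a signal is spread over the cells.

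TFPI2, the matrix-bound relative, had overlapping values in all groups. Its probe ILMN_1667630 gave 9.02, 9.43 and 8.84 in RPF1 Tet+ and 9.88, 9.39 and 9.45 in RPF1 Tet-, with 9.26, 9.69 and 9.57 in Mock Tet+ and 9.77, 9.32 and 9.11 in Mock Tet-. RPF1 Tet- 1 was the highest array and RPF1 Tet+ 3 the lowest. The induced mean of 9.57 ± 0.27 (SD, n = 3) lay above the uninduced mean of 9.10 ± 0.31, a log2 change of 0.47 (SE 0.20, 95% interval 0.02 to 0.92). With chip as a block the change was 0.78 (SE 0.28), and it rests on RPF1 Tet- 1, the highest of the 12 arrays.

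F3, the initiator of clotting, was close to the limit of detection in every group. Its probe ILMN_1797009 read 7.02, 6.44 and 7.29 in Mock Tet+ and 6.59, 7.35 and 7.14 in Mock Tet-. The values were 7.01, 6.91 and 6.49 in RPF1 Tet+ and 6.62, 6.29 and 6.47 in RPF1 Tet-. The probe was detected on all 12 arrays, with detection p-values of 0.00424 to 0.0184, while the lowest detected signals of the arrays were 5.94 to 6.20. The induced arrays were the tightest group, and they overlapped with RPF1 Tet+. The change on induction was -0.34 on the log2 scale (SE 0.24, 95% interval -0.86 to 0.18), and -0.18 (SE 0.32) with chip as a block. Such a signal limits how far a fold can be read, so none is given.

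Of the plasminogen activators, PLAU had a positive and PLAT a negative change in induced cells, and both 95% intervals included 0. PLAU (ILMN_1656057) read 7.51, 7.60 and 7.73 in RPF1 Tet+ and 8.29, 7.78 and 7.75 in RPF1 Tet-. The 2 groups did not overlap, although RPF1 Tet- 3 was only just above RPF1 Tet+ 3. The 6 Mock arrays covered 6.85 to 7.65. The change was 0.33 (SE 0.20, 95% interval -0.11 to 0.77), and with chip as a block it was 0.68 (SE 0.27), more than 1.5 times as large on the log2 scale, and that fit rests on the highest array, RPF1 Tet- 1. Without that array the change was 0.15 (SE 0.20).

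PLAT (ILMN_1738742) read 9.78, 9.49 and 9.94 in RPF1 Tet+ and 9.34, 9.70 and 9.49 in RPF1 Tet-. These groups overlapped, and the change was -0.22 (SE 0.15, 95% interval -0.55 to 0.10). It was -0.39 (SE 0.19) with chip as a block, -0.35 without RPF1 Tet+ 2, -0.12 without RPF1 Tet+ 3 and -0.14 without RPF1 Tet- 1. In Mock Tet+ it read 9.47, 9.30 and 9.09, and in Mock Tet- 9.35, 9.08 and 9.41. The uninduced RPF1 arrays all lay above both Mock groups.

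PLAUR, the urokinase receptor, was slightly lower on induction by 1 of its 2 probes. The brighter probe, ILMN_1666507, read 8.04, 8.26 and 8.07 in RPF1 Tet+ and 7.99, 7.66 and 7.81 in RPF1 Tet-, so the groups did not overlap. The change was -0.31 (SE 0.11, 95% interval -0.55 to -0.06), and -0.13 (SE 0.15) with chip as a block. The second probe, ILMN_1691508, read 7.64, 7.50 and 7.29 against 7.68, 7.37 and 7.49, a change of 0.03 (SE 0.11, 95% interval -0.20 to 0.27). The 2 probes thus gave different values for PLAUR, and the difference between them was not tested.

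SERPINE2, the inhibitor of urokinase, tissue plasminogen activator and thrombin, was higher in induced cells. Its probe ILMN_1655595 read 11.51, 11.76 and 11.48 in RPF1 Tet+ and 12.49, 12.16 and 12.34 in RPF1 Tet-. In Mock Tet+ it read 11.23, 11.50 and 11.37, and in Mock Tet- 11.47, 11.35 and 11.36. The 3 induced arrays lay above all 9 others. The change was 0.75 (SE 0.11, 95% interval 0.51 to 0.99), or 1.68-fold higher, and 0.91 (SE 0.16) with chip as a block.

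**Figure D2:**
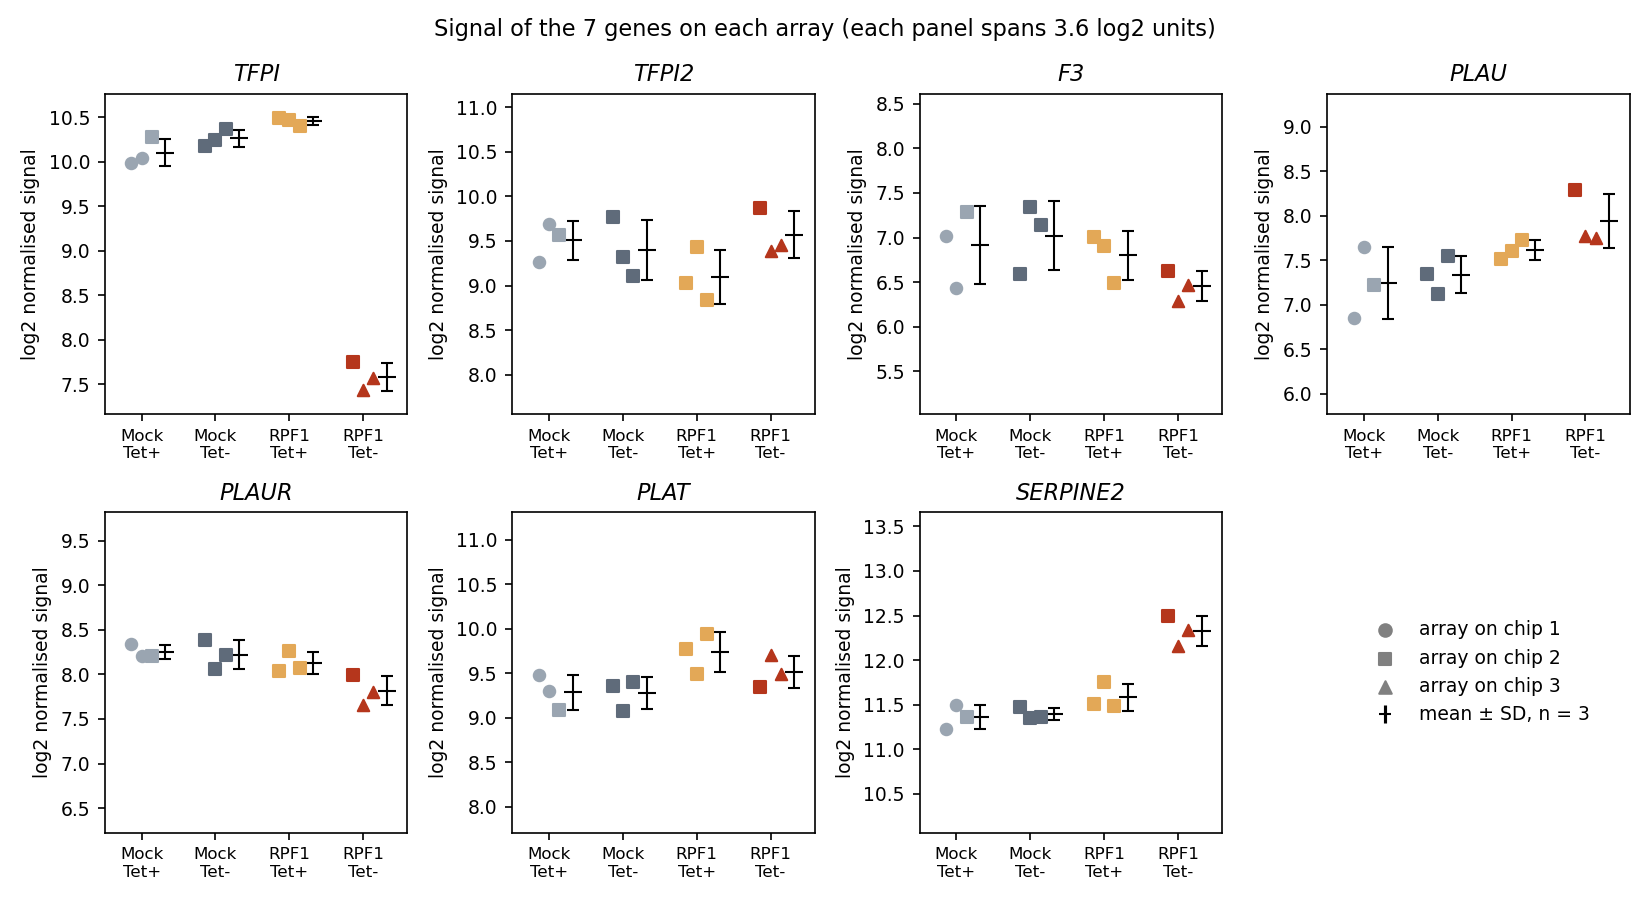
The log2 normalised signal of each of the 7 genes on the 12 arrays, for the probe used for that gene. Circles, squares and triangles are arrays of chips 1, 2 and 3 and bars are the mean ± SD (n = 3), and all panels span the same number of log2 units. TFPI is the only panel in which the induced arrays drop by more than 2 log2 units, and SERPINE2 has its highest values there.

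Over all features, 13.4% passed an adjusted p of 0.05 in RPF1 Tet- against RPF1 Tet+, 6.69% higher and 6.74% lower, and 29.4% had groups that did not overlap, 14.8% higher and 14.6% lower. Of the 7 genes, 2 passed that threshold, TFPI lower and SERPINE2 higher, and 4 had groups apart, PLAU and SERPINE2 higher and TFPI and PLAUR lower. As the members were picked on this comparison, nothing is read from these counts.

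Tet itself was examined in the Mock cells, which gives the only comparison that uses no RPF1 arrays. None of the 7 genes passed the test there, and 0 of all 13228 features passed the threshold in limma, a share of 0%, with 327 features and 0 of the 7 genes at an unadjusted p under 0.05. For TFPI the log2 change was 0.16 (SE 0.10, 95% interval -0.06 to 0.39, limma adjusted p = 1), and SERPINE2 had 0.03 (SE 0.11, 95% interval -0.21 to 0.27, limma adjusted p = 1). The remaining changes were 0.11 for F3, 0.10 for PLAU, -0.01 for PLAT, -0.03 for PLAUR and -0.11 for TFPI2, each with limma adjusted p = 1. The groups overlapped for all 7 genes at the probes used, against 6.89% of features whose groups did not. The probe ILMN_1701032 of TFPI was apart, higher in Mock Tet-, by 0.18 (SE 0.11). The widest interval, that of F3, ran from -0.41 to 0.63, and changes within these intervals could not be resolved with 3 arrays per group.

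The difference between the Tet effect in RPF1 cells and that in Mock cells was -3.03 for TFPI (SE 0.15, 95% interval -3.35 to -2.71). For SERPINE2 it was 0.72 (SE 0.16, 95% interval 0.37 to 1.06). Among the other 5 genes it ran from -0.45 for F3 (SE 0.34) to 0.58 for TFPI2 (SE 0.29), and all these intervals included 0. With chip as a block the values were 0.0918 for F3 (SE 0.45), 0.95 for TFPI2 (SE 0.40), 0.56 for PLAU (SE 0.38), -0.15 for PLAUR (SE 0.22) and -0.58 for PLAT (SE 0.28). Over all features 5.13% passed the threshold, 2.6% higher and 2.53% lower, and 2 of the 7 genes did. As this difference holds the comparison the genes were picked on, nothing is read from that count. The SERPINE2 call was lost with chip as a block (0.88, SE 0.22) and when any 1 of Mock Tet+ 2 or 3, Mock Tet- 2 or 3, RPF1 Tet+ 1 or RPF1 Tet- 3 was left out, at values of 0.65 to 0.71. The TFPI value stayed between -3.12 and -2.96 with any array left out.

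The uninduced RPF1 line was also compared with the Mock line, which the labels name as its reference. TFPI was higher in RPF1 Tet+ than in Mock Tet+ by 0.35 (SE 0.10, 95% interval 0.13 to 0.58), with every array above every Mock Tet+ array. Its difference was 0.18 (SE 0.12) with chip as a block, where the call was lost. The call was also lost on median scaling (0.33), with no detection filter, with the 6 arrays of the comparison alone and when any 1 of 7 arrays was left out: Mock Tet+ 1 or 2, Mock Tet- 2, RPF1 Tet+ 1, 2 or 3 or RPF1 Tet- 3, at values of 0.30 to 0.38. PLAT was higher by 0.45 (SE 0.15, 95% interval 0.13 to 0.77), also with groups apart, and was called only on the authors' values, without background correction, under a filter of detection p under 0.01 on all 12 arrays and without RPF1 Tet+ 2 (0.57). For the rest the differences were 0.37 for PLAU (SE 0.20), 0.22 for SERPINE2 (SE 0.11), -0.12 for F3 (SE 0.24), -0.13 for PLAUR (SE 0.11) and -0.41 for TFPI2 (SE 0.20), with overlapping groups. In this comparison 15.1% of all features passed the threshold, 7.62% higher, and 1 of the 7 genes did. Groups were apart for 34.2% of features, 17.5% higher, and for 2 of the 7 genes. The uninduced RPF1 arrays had a part in the choice of genes, so nothing is read from these counts either.

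Induced RPF1 cells against Mock Tet- gave 4 of 7 genes past the threshold, where 31.3% of all features passed, 15.8% higher and 15.5% lower. TFPI was 6.40-fold lower (log2 change -2.68, SE 0.10, 95% interval -2.91 to -2.45) and SERPINE2 1.91-fold higher (0.93, SE 0.11, 95% interval 0.69 to 1.18). PLAU was higher by 0.60 (SE 0.20, 95% interval 0.16 to 1.04) and PLAUR lower by a change of -0.40 (SE 0.11, 95% interval -0.65 to -0.16). These 4 were the genes with groups apart, against 45% of all features, 22.7% higher and 22.3% lower. The genes were picked on the induced arrays, so nothing is read from these counts. With chip as a block, TFPI was at -2.51 and SERPINE2 at 1.10 and both calls were kept, while those of PLAU (0.95, SE 0.27) and PLAUR (-0.23, SE 0.15) were lost. The PLAU call was also lost when any 1 of Mock Tet+ 3, Mock Tet- 1 or 2, RPF1 Tet+ 1 or 2 or RPF1 Tet- 1 was left out, at values of 0.43 to 0.61. That of PLAUR was lost without Mock Tet- 1 (-0.32) or RPF1 Tet- 2 (-0.33), and its probe ILMN_1691508 gave -0.08 (SE 0.11). F3 differed by -0.56 (SE 0.24) and was called only when Mock Tet- 1 was left out (-0.78). PLAT and TFPI2 differed by 0.23 and 0.17. These comparisons share arrays, so their values stand side by side and do not repeat each other.

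**Figure D3:**
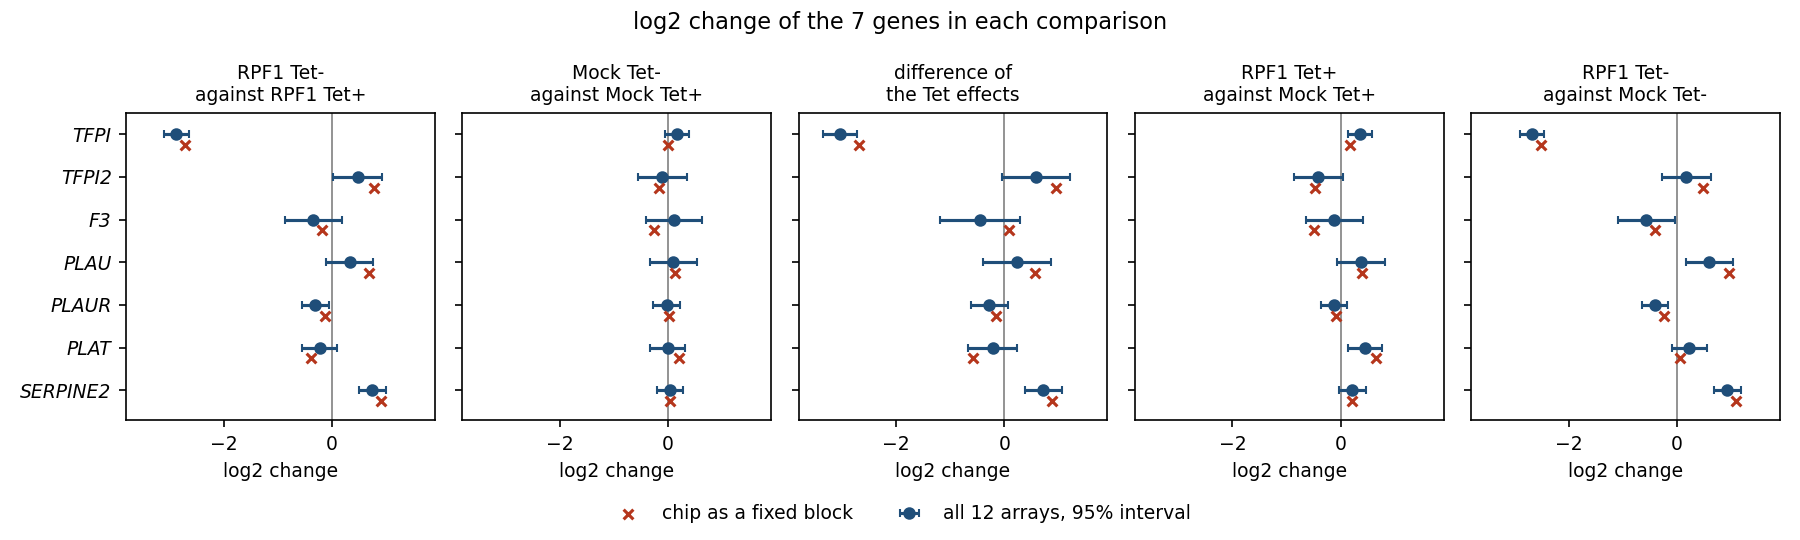
The log2 change of the 7 genes in the 5 comparisons, with limma's 95% interval (points and bars) and the value with chip as a fixed block (crosses). TFPI lies between -3.03 and -2.68 in the 3 comparisons that involve induced RPF1 cells, and the Mock comparison has every interval across 0.

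Other genes of these systems were read from 7 lists with 68 tested genes. The lists were chosen with earlier results of these data known, and genes are named because they were called in these same comparisons. Their limma p-values in comparisons that use RPF1 arrays are descriptive and carry no independent support. In RPF1 Tet- against RPF1 Tet+, 3 were higher, 6 were lower and 59 did not pass, or 13.2% against 13.4% of all features, and the median change was -0.09 against -0.01 for all features. With chip as a block only ANXA2 passed. ANXA2, a cell surface annexin that binds plasminogen and tissue plasminogen activator, fell by 0.77 on the log2 scale (SE 0.09, limma adjusted p = 0.000226), from 13.17 ± 0.05 (SD, n = 3) to 12.40 ± 0.19, and with chip as a block by 0.59 (limma adjusted p = 0.0246). Its limma adjusted p over the 12 fits that leave out an array was 0.000153 to 0.0018. ITGAV, the alpha V subunit of vitronectin-binding integrins, had a change of -0.71 (SE 0.10, limma adjusted p = 0.000999, and 0.0794 with chip as a block). ANXA2 and ITGAV were also the list genes called in the difference of the Tet effects, at -0.77 (SE 0.13) and -0.77 (SE 0.15), limma adjusted p = 0.00566 and 0.0124. That is 2.94% of list genes against 5.13% of all features. Both were named for this difference from values already seen, so its p-values carry no independent support. Neither passed there with chip as a block, at -0.61 for ANXA2 (limma adjusted p = 0.165) and -0.56 for ITGAV (limma adjusted p = 0.326).

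Among 12 other plasminogen system genes 1 was higher and 1 lower on induction. LRP2, an endocytic receptor that clears protease and inhibitor complexes, rose by 0.50 (SE 0.12, limma adjusted p = 0.021). The 14 partners of the urokinase receptor and genes of the LY6/uPAR family had 1 higher, LYPD1 (0.53, SE 0.16, limma adjusted p = 0.0458), and 2 lower, ITGAV and the fibronectin receptor subunit ITGA5 (-0.27, SE 0.08, limma adjusted p = 0.0456). Of 10 genes for clotting factors or for processing them 1 was lower, VWF, the carrier of factor VIII (-0.34, SE 0.10, limma adjusted p = 0.0414). Of 8 anticoagulants and thrombin receptors 1 was lower, ANXA5, which covers phosphatidylserine (-0.35, SE 0.11, limma adjusted p = 0.0484). Of 6 other Kunitz domain genes 1 was higher, COL7A1, the anchoring fibril collagen (0.85, SE 0.22, limma adjusted p = 0.0249), and of 12 matrix metalloproteinase and inhibitor genes 1 was lower, ADAMTS1, a secreted protease (-0.64, SE 0.17, limma adjusted p = 0.0289). None of the 6 other serpins passed.

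Of the 9 calls on induction, 7 were lost when some single arrays were left out. With any array left out, ANXA2 and ITGAV stayed past the threshold. COL7A1 lost its call without RPF1 Tet+ 1, RPF1 Tet+ 3 or RPF1 Tet- 2, ADAMTS1 without RPF1 Tet+ 3, RPF1 Tet- 1 or RPF1 Tet- 3, and LRP2 when RPF1 Tet+ 1, RPF1 Tet+ 2, RPF1 Tet- 1 or RPF1 Tet- 3 was left out. VWF, LYPD1, ANXA5 and ITGA5 lost theirs in 9, 8, 10 and 10 of 12 such fits, where their limma adjusted p reached 0.13, 0.143, 0.157 and 0.155. In the Mock cells none of the 68 genes passed.

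In RPF1 Tet+ against Mock Tet+, 9 of the 68 were higher, 5 were lower and 54 did not pass, 20.6% against 15.1% of all features, and with chip as a block 1 was higher, PAPLN, just inside the threshold of 0.05, and 0 were lower. SERPINA5, the protein C inhibitor, which also inhibits urokinase, was higher by 1.20 (SE 0.21, limma adjusted p = 0.00442), from 7.33 ± 0.30 (SD, n = 3) to 8.53 ± 0.43. SERPINF1, a serpin that inhibits no protease, was higher by 1.01 (SE 0.26, limma adjusted p = 0.0223) and SERPINB1, an inhibitor of neutrophil proteases, by 0.41 (SE 0.10, limma adjusted p = 0.0224). APP, which has a Kunitz domain in some isoforms, was higher by 0.57 (SE 0.12, limma adjusted p = 0.00993) and PAPLN, a matrix protein with a Kunitz domain, by 0.56 (SE 0.17, limma adjusted p = 0.0468). VWF was higher by 0.59 (SE 0.10, limma adjusted p = 0.00324) and LRP2 by 0.47 (SE 0.12, limma adjusted p = 0.027). LRP2 was detected on 2 of 3 Mock Tet+ arrays, and its call was lost on the authors' values and without background correction.

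Among the lower genes, F12, the contact factor of clotting, had a change of -0.87 (SE 0.25, limma adjusted p = 0.036), from 10.08 ± 0.24 (SD, n = 3) to 9.20 ± 0.17. EGFR, a receptor that works with the urokinase receptor, had -0.59 (SE 0.13, limma adjusted p = 0.0137), CD59, an inhibitor of complement with a LY6/uPAR domain, -0.34 (SE 0.09, limma adjusted p = 0.0212), and LRPAP1, the chaperone of LRP receptors, -0.32 (SE 0.08, limma adjusted p = 0.0254). The gelatinase MMP9 was higher by 0.69 (SE 0.19, limma adjusted p = 0.0357) but was detected on 2 of 3 Mock Tet+ arrays. Its call was lost on the authors' values and without background correction, and its value was as low as 0.29 under other settings. TIMP4, an inhibitor of metalloproteinases, was undetected on all RPF1 Tet+ arrays and lower there by at least 1.22-fold (adjusted p = 0.0186 in limma). SPINT2, a Kunitz inhibitor of serine proteases, was called (limma adjusted p = 0.0477) but was detected on no Mock Tet+ array and on 1 of 3 RPF1 Tet+ arrays, so no fold is given. With any array left out SERPINA5, VWF and APP stayed past the threshold, EGFR lost its call without RPF1 Tet+ 1 (limma adjusted p = 0.0532), and the others lost theirs in 3 to 10 of 12 fits, where the limma adjusted p reached 0.0715 for CD59 to 0.166 for PAPLN.

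**Figure D4:**
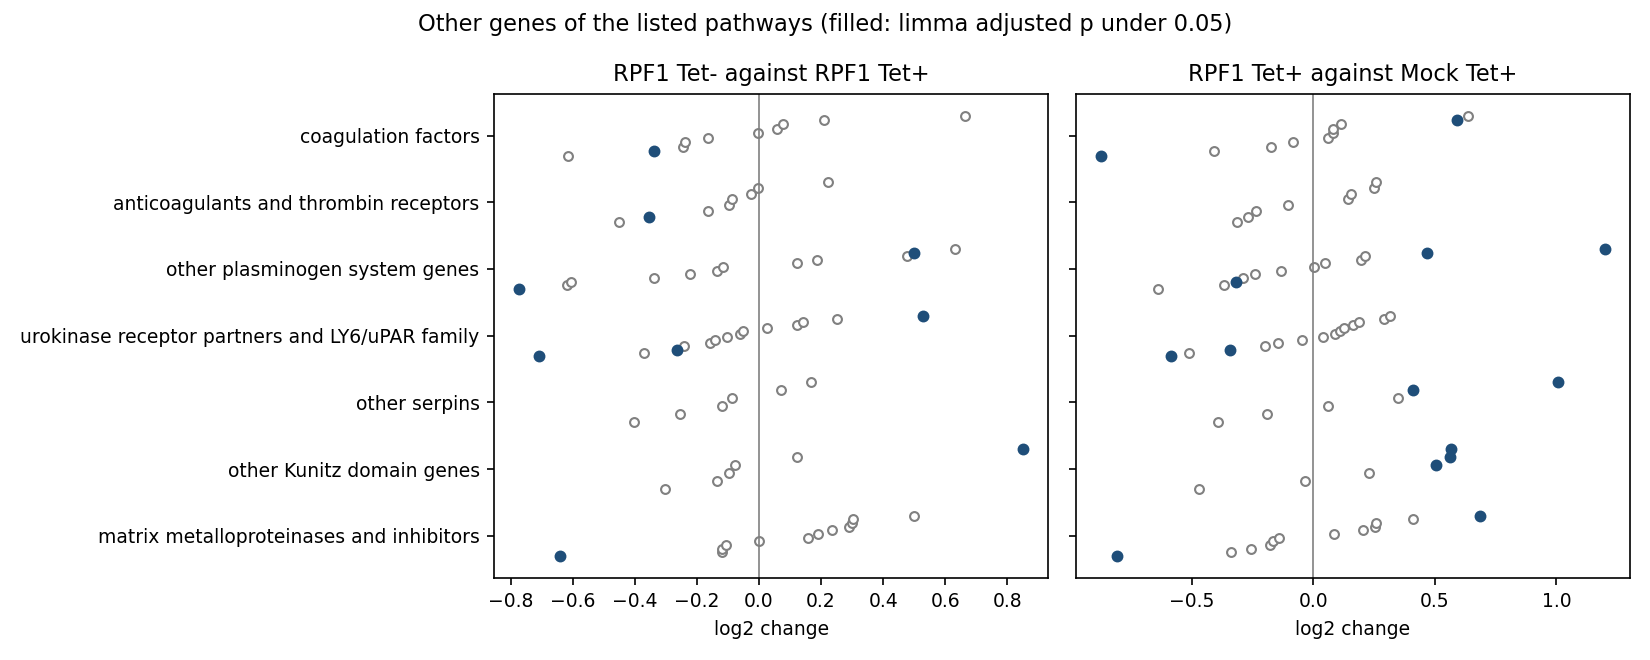
The log2 change of each tested gene of 7 lists in RPF1 Tet- against RPF1 Tet+ (left) and in RPF1 Tet+ against Mock Tet+ (right), filled where limma's adjusted p was under 0.05. The filled points are 9 of 68 at the left and 14 of 68 at the right, and they fall on both sides of 0.

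Genes whose pattern was most like that of TFPI were found by the root mean square difference of log2 signal over the 12 arrays, after each gene's Mock Tet+ mean was subtracted. On this scale TFPI stood at 0.16 for Mock Tet-, at 0.35 for uninduced and at -2.52 for induced RPF1 cells. The nearest was PCDH7, a protocadherin, at a distance of 0.221, with group means of -0.05, 0.16 and -2.24. CDKN2B, a cell cycle inhibitor, was at 0.241 (0.01, -0.04 and -2.56), EDIL3, a matrix protein that binds integrins, at 0.318, PHLDB2 at 0.344 and DNAJC12 at 0.346. For PLAU the nearest genes were OXCT2 at 0.178, PNPLA7 at 0.182, UBXN8 at 0.189, SIRPA at 0.190 and RASL10B at 0.193. Their mean signal in RPF1 Tet-, relative to Mock Tet+, lay between 0.56 and 0.90. These distances describe 12 arrays that share 4 groups, and they say nothing of a common control.

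**Figure D5:**
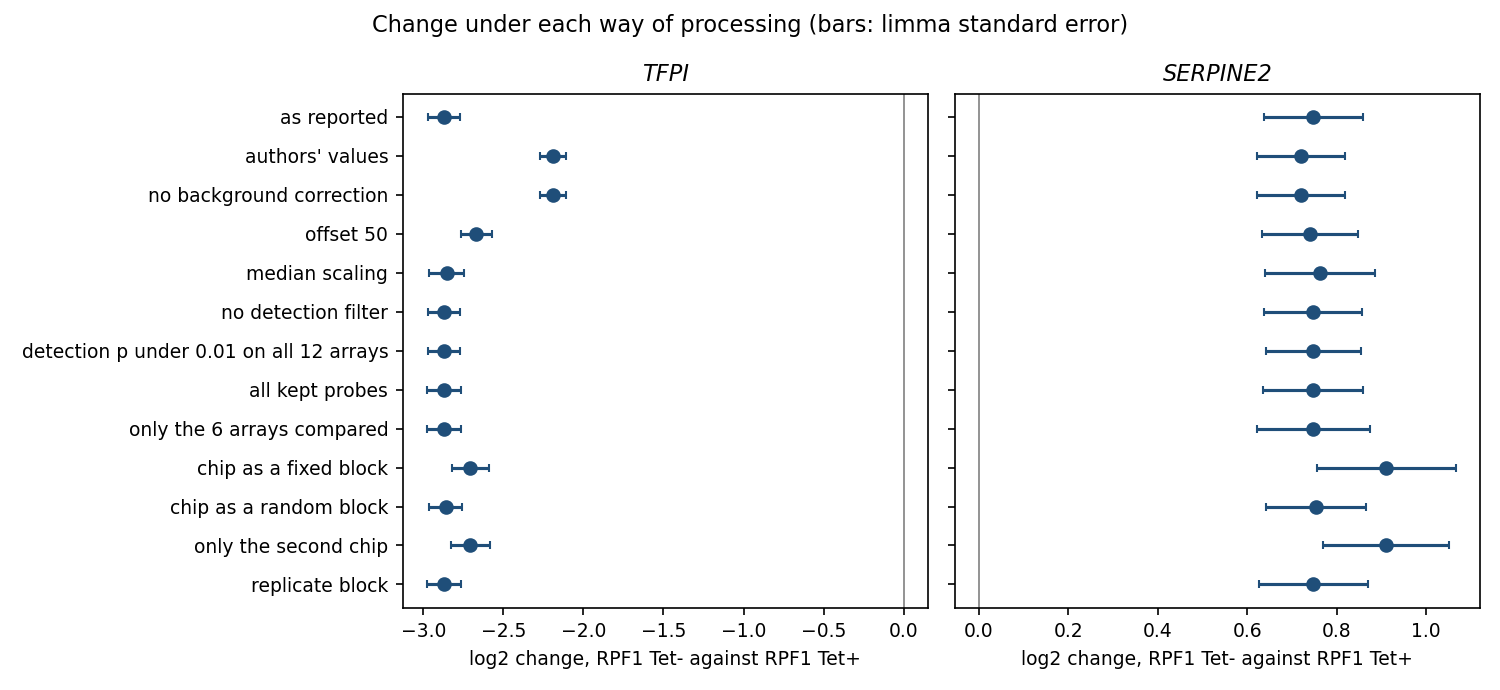
The log2 change of TFPI (left) and SERPINE2 (right) in RPF1 Tet- against RPF1 Tet+ under each way of processing, with limma's standard error as bars. TFPI lies between -2.87 and -2.19 and SERPINE2 between 0.72 and 0.91.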

How the data were processed

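Unnormalised bead signals (intensity) and a detection p-value per probe and array were deposited by the authors, per the file headers. BeadStudio, of a version not given in the sources used here, read the signals, per the submitters' processing notes. The authors' processed intensity table was checked against quantile normalised signals without background subtraction, and the median difference was 0.00626% and the largest 2.11%. Detection p-values deposited with the signals moved in steps of 708 negative controls.

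Signals were background corrected by limma's normexp model, with background taken from detection p and an offset of 16, quantile normalised and taken to log2. Probes needed a detection p below 0.05 on 3 or more arrays (14752 of 22184 did). Each gene symbol was represented by its brightest remaining probe, and each remaining probe without a symbol was a feature of its own. This gave 13228 features, of which 11824 had a symbol. Symbols came from GEO's platform annotation, updated through RefSeq, in which 17 gene IDs were absent. 19715 probes had 1 symbol, 2469 had none and 0 several. The fit in limma 3.58.1 (R 4.3.3) had a coefficient for each of 4 groups, 8 residual degrees of freedom and a prior of 3.29. It gave 5 contrasts, with Benjamini-Hochberg adjustment over all features and a threshold of 0.05. It was tested on simulated data. The number of arrays limits the precision.

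Members, lists and the rule for named genes were chosen with earlier results of these data known. Named list genes are up to 3 called genes per list with the largest change in each of RPF1 Tet- against RPF1 Tet+, RPF1 Tet+ against Mock Tet+ and Mock Tet- against Mock Tet+. ANXA2 and ITGAV in the difference of the Tet effects were picked from values already seen. The alternatives tried were the authors' table, background correction, offset, scaling, detection filter, all probes, fewer arrays, chip or replicate as a block, and each array left out. The level of the transfected factor is not reported here.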

Additional observations from a re-analysis of the deposited data

Results flagged for a closer look

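By limma's interaction contrast, TFPI and SERPINE2 differed in their Tet effect between RPF1 and Mock cells. Both were picked with the RPF1 response known. The contrast holds that response, so the values are a description. For TFPI the difference was -3.03 on the log2 scale (SE 0.15), with a change of -2.87 in RPF1 cells and of 0.16 in Mock cells. For SERPINE2 it was 0.72 (SE 0.16), with a change of 0.75 in RPF1 cells and of 0.03 in Mock cells, and with chip as a block it was 0.88 (SE 0.22) and did not pass the threshold.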

How the results depend on the processing

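Of 828 values of the 7 genes under other settings, 764 kept their direction and side of the threshold, 35 lost a call, 5 gained one and 24 changed sign, none of them a called value. TFPI and SERPINE2 kept their calls in RPF1 Tet- against RPF1 Tet+ throughout. As both were picked with that response known, the kept calls are a description and no support for the changes. F3 had no value under the strict detection filter. In the Mock comparison, chip as a fixed block or the second chip alone gave -0.0116 for TFPI, -0.27 for F3, 0.0177 for PLAUR and 0.19 for PLAT, a random chip block 0.00473 for PLAT, and leaving out an array gave -0.30 to 0.0344 for TFPI2, -0.13 to 0.33 for F3, -0.10 to 0.30 for PLAU, -0.11 to 0.0492 for PLAUR, -0.11 to 0.0936 for PLAT and -0.0361 to 0.0983 for SERPINE2. F3 turned to 0.0918 in the difference of the Tet effects with chip as a block or the second chip alone, and ran from -0.36 to 0.0714 in RPF1 Tet+ against Mock Tet+ with an array left out.

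Features called in RPF1 Tet- against RPF1 Tet+ were 1776, and 419 with chip as a fixed block, 363 on the second chip alone, 971 with only the 6 arrays and 1132 to 1696 with an array left out. In the difference they were 679, then 98, 75 and 427 with the replicate block, and 417 to 663. In RPF1 Tet+ against Mock Tet+ they were 1999, then 296, 130 and 1092 to 2393, and in RPF1 Tet- against Mock Tet- 4135, then 1255, 1119 and 2989 to 4251. Called members in the difference went from 2 to 1 with the chip block, the second chip alone and the replicate block, and 1 to 2 with an array left out. In RPF1 Tet+ against Mock Tet+ they went from 1 to 2 on the authors' values, without background correction or under the strict filter, and to 0 with median scaling, no filter, the 6 arrays, the chip block, the second chip alone, the replicate block, and 0 to 1 with an array left out. In RPF1 Tet- against Mock Tet- they went from 4 to 2 with the chip block, to 3 with the 6 arrays alone, on the second chip alone (both without PLAUR) and with the replicate block (without PLAU), and 3 to 4 with an array left out.

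Of the pathway list genes, 9 were called in RPF1 Tet- against RPF1 Tet+, and 5 with no filter, 3 with the 6 arrays, 1 with the chip block or second chip alone, 5 with the replicate block and 4 to 8 with an array left out. In RPF1 Tet+ against Mock Tet+ 14 were called, and 8 with the 6 arrays, 1 with the chip block (PAPLN), 1 on the second chip alone (TIMP4) and 5 to 16 with an array left out. None of 546 values of the named list genes changed sign, and 187 lost the call. The causes were not tested, and some settings also use fewer arrays. Of 18 same-numbered pairs of arrays, 6 had a correlation of deviations over 0.1 (-0.401 to 0.414 over the 18). Arrays with different numbers were not compared in this way, so whether the replicate numbers pair the arrays is not known. The replicate block rests on these numbers alone, and it moved no call of the 7 genes in RPF1 Tet- against RPF1 Tet+. Low signals such as that of F3 lie near background, which limits their folds.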
